A study of Rattus norvegicus with 25 samples.

Results

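The Egr and Nr4a genes are activity-induced transcription factors, and 6 of them were followed through the hippocampus of rats after the forced swim test (FST). They were Egr1 (ENSRNOG00000019422), Egr2 (ENSRNOG00000000640), Egr3 (ENSRNOG00000017828), Nr4a1 (ENSRNOG00000007607), Nr4a2 (ENSRNOG00000005600) and Nr4a3 (ENSRNOG00000005964). The genes were chosen by identifier, as established members of the immediate early response, and all 6 stood among the 32623 genes of every file. All 6 also passed the filter on low counts, which left 13908 genes to test.

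Polyadenylated RNA from the hippocampus of 19 male Sprague Dawley rats was sequenced in 25 libraries. The control group held 6 rats that did not swim. The FST groups swam in a cylinder of water on consecutive days, a pretest and then a shorter test. In the 20-m group 7 rats were decapitated 20 min after the test, and in the 24-h group 6 rats were decapitated 24 h after it. Each FST rat had therefore swum on the day before the test as well, and the labels give no control that was handled or placed in water without swimming. The sources used here do not say which part of the hippocampus was taken. The rats carried no transgene, and the labels give no age. The labels place 9 rats in Batch 1, equally from the 3 groups, and 7 rats in Batch 2, of which a single one was a control. The remaining 3 rats, of which 2 were controls and 1 belonged to the 20-m group, were sequenced repeatedly as Batches 3 to 5, and their runs were added up.

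Immediate early genes are transcribed within minutes of a stimulus without new protein synthesis. Calcium entry and receptor signalling reach them through kinases that act on CREB at cAMP response elements and on serum response factor at CArG boxes. Egr1, Egr2 and Egr3 encode zinc-finger proteins that bind GC-rich sites, and all of them have been tied to synaptic plasticity and memory. Nr4a1, Nr4a2 and Nr4a3 encode orphan nuclear receptors that act without a known physiological ligand and bind the NBRE element. In the hippocampus both families are used as readouts of recent neuronal activity and of stress, novelty and learning. In bulk tissue, fewer cells that express a gene and less RNA of it per cell cannot be told apart.

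The reference promoters were searched for letter matches to the cAMP response element (CRE), the CArG box and other short motifs. RefSeq promoters on the GRCr8 build were at hand for 4 of the 6 genes, Egr1, Egr2, Nr4a1 and Nr4a2, while the deposited counts were made on Rnor 6.0. The 250 bases before the start are printed 5′ to 3′ for the 3 genes that carry the results on levels shared between rats and on single animals. Capitals mark matches to the CRE half-site TGACG on either strand, which reads CGTCA on the printed one, and to the CArG box. The CArG box was taken as CC, then 6 letters that are each A or T, then GG. Only exact matches were counted, so a sequence that differs by a letter was not.
Egr1 (chr18:26736828-26737077, plus strand): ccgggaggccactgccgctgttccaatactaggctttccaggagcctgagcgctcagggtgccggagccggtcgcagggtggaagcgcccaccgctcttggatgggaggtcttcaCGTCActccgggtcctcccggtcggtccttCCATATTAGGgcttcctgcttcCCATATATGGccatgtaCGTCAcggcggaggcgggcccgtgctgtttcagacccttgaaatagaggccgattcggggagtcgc
Egr2 (chr20:21054442-21054691, minus strand): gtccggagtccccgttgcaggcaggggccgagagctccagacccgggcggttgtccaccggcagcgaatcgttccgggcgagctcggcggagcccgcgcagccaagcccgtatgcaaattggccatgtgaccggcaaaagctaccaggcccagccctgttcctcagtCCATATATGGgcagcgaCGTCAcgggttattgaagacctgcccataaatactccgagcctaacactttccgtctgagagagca
Nr4a1 (chr7:134259888-134260137, plus strand): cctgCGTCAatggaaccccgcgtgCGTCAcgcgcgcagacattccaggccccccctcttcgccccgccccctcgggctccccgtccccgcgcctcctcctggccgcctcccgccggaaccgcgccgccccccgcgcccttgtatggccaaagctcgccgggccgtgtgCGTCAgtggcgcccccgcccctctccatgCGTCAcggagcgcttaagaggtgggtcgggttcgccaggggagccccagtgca
The Egr1 window held 2 CArG boxes and 2 CRE half-sites. The Egr2 window held 1 of each, and the 10 bases of its CArG box were the same letters as the box of Egr1 that lies at the same distance, 83 to 74 bases before the start. The Nr4a1 window held 4 CRE half-sites and 0 CArG boxes. It also held 1 match to the Egr site GCGNGGGCG, on the minus strand. The Nr4a2 window held 1 CRE half-site and no match to the other motifs searched. None of the 4 windows held the full CRE TGACGTCA, the NBRE AAAGGTCA or a TATAAA match. Among 33469 promoters of the same length, 18.2% held a CRE half-site, 1.5% a CArG box, 4.29% an Egr site, 1.59% a full CRE, 1.24% an NBRE and 12.9% TATAAA. The full CRE contains the half-site. A match describes the letters of the reference and is not a measured binding site.

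Levels of different genes were compared in TPM, which scales counts by transcript length. In control rats Egr3 averaged 47.4 ± 6.08 TPM (SD, n = 6) and Egr1 42.0 ± 9.74. Nr4a3 (22.3 ± 3.36), Nr4a1 (19.4 ± 4.41) and Nr4a2 (17.5 ± 2.8) followed, and Egr2 was far lower at 1.1 ± 0.34 TPM. The step from Egr1 down to Nr4a3 and the step from Nr4a2 down to Egr2 each held in 6 of 6 control rats, with p = 0.0312 in an exact 2-sided sign-flip test, the smallest p that 6 rats allow. Egr3 was above Egr1 in 5 of 6 control rats (exact p = 0.0625 in the same test). Nr4a3 was above Nr4a1 in 3 of 6 (exact p = 0.406) and Nr4a1 above Nr4a2 in 4 of 6 (exact p = 0.188). The order within these pairs was therefore not settled, and with 6 rats the test has few possible p-values.

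In the 20-m group the order of the means changed in 2 places. Egr1 (44.9 ± 15.5 TPM, n = 7) and Egr3 (44.5 ± 12.3) stood level (exact p = 0.906). Nr4a1, at 26.9 ± 7.65 TPM, stood above Nr4a3 at 18 ± 2.79 in 7 of 7 rats (exact p = 0.0156, the smallest that 7 rats allow). In the control group Nr4a3 had been above Nr4a1 in 3 of 6 rats. In the 24-h group Nr4a1 averaged 26.4 ± 6.66 TPM and Nr4a3 21.6 ± 5.4, with Nr4a1 above in 4 of 6 rats (exact p = 0.344). Egr2 was lowest in each group, at 0.997 ± 0.37 TPM in the 20-m and 1.73 ± 1.31 TPM in the 24-h group.

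**Figure D1:**
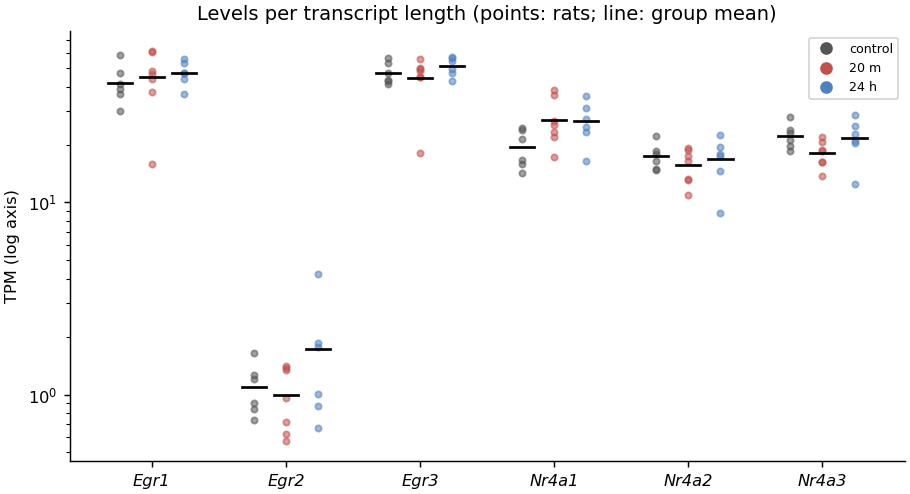
TPM of each gene on a log axis in control, 20-m and 24-h rats, with a point for each rat and a line at the group mean. Egr1 and Egr3 lie highest, the Nr4a genes lie between 15.6 and 26.9 TPM in group means, and Egr2 lies near 1 TPM.

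Facts of the libraries touch these genes. Summed counts were 6217562 to 9032877 per rat. Over all genes tested, 2 rats stood apart from the rest. In rat 12 of the 20-m group 539 genes lay over 2-fold from the median of the group once batch was removed, and in rat 13 of the 24-h group 391 did, against 92 to 200 in the other 17 rats. Cell type markers could not be matched to the identifiers of the files, so the makeup of these samples was not tested. Fold changes and relations that moved without both rats are given with and without them, except likeness over all genes, which was taken with all rats only. The expected counts of these genes were whole numbers in every library but 1 of Egr3, where the count lay 0.01 from a whole number, so almost no reads were shared with other genes. Egr2 had 10 to 79 reads per rat, the fewest of the 6, and its values carry the largest counting error.

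None of the 6 genes was called in any of the 3 comparisons in edgeR's quasi-likelihood test, where a call needed a difference of more than 1.5-fold and an adjusted p under 0.05. Of all genes tested, 0.0431% were called at 20 min against control, 0% at 24 h against control and 0.036% at 20 min against 24 h. At an unadjusted p under 0.05 there were 2 of the 6 genes at 20 min against control (Nr4a1 higher and Nr4a3 lower), beside 7.55% of all genes. There were 2 at 24 h against control (Nr4a1 and Egr2, both higher), beside 3.17%. There was 1 at 20 min against 24 h (Egr2, lower at 20 min), beside 13.8%. These counts depended on rats 12 and 13. When both were left out, 3 of the 6 genes were under 0.05 at 20 min against control (Egr1, Nr4a1 and Nr4a3, beside 9.33% of all genes), 1 at 24 h against control (Nr4a1, beside 2.5%) and 1 at 20 min against 24 h (Nr4a3, beside 10.1%). The control rats are shared by the first pair of comparisons, and the last shares an FST group with each. No gene of the 6 had groups that did not overlap in CPM, the counts scaled to library size, which happened for 0.259%, 0.122% and 0.424% of all genes in the same order. The median log2 fold change of the 6 genes was 0.021 at 20 min and 0.218 at 24 h against control, and −0.126 at 20 min against 24 h. For all genes tested it was −0.001, −0.001 and −0.002.

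The result is set beside other early response genes. From the study's list of changed genes, 10 early response genes with identifiers were used, Sik1, Btg2, Atf3, Dusp1, Apold1, Fos, Klf2, Ccn1, Klf4 and Zfp36. The study chose them for their change in these rats, so they are no independent measure of the response. The list also holds ENSRNOG00000053462 beside the symbol of one gene and the description of another. It was left out here. Its own log2 fold change at 20 min was −1.185, while the study lists that identifier with a positive log2 fold change. The reason for the opposite signs was not tested, and the counts that follow leave it out. At 20 min against control, 10 of the 10 were higher and 5 were called, with log2 fold changes of 0.76 to 3.38. Fos, at 1.25, was not among the 5 in edgeR (adjusted p = 0.0852), while its adjusted p was 0.0015 in DESeq2 and 0.0204 with ComBat and limma. At 24 h against control 0 were called, with values of −0.13 to 0.55. The 6 Egr and Nr4a genes lay between −0.31 and 0.59 at 20 min, below the lowest of those 10 values.

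**Figure D2:**
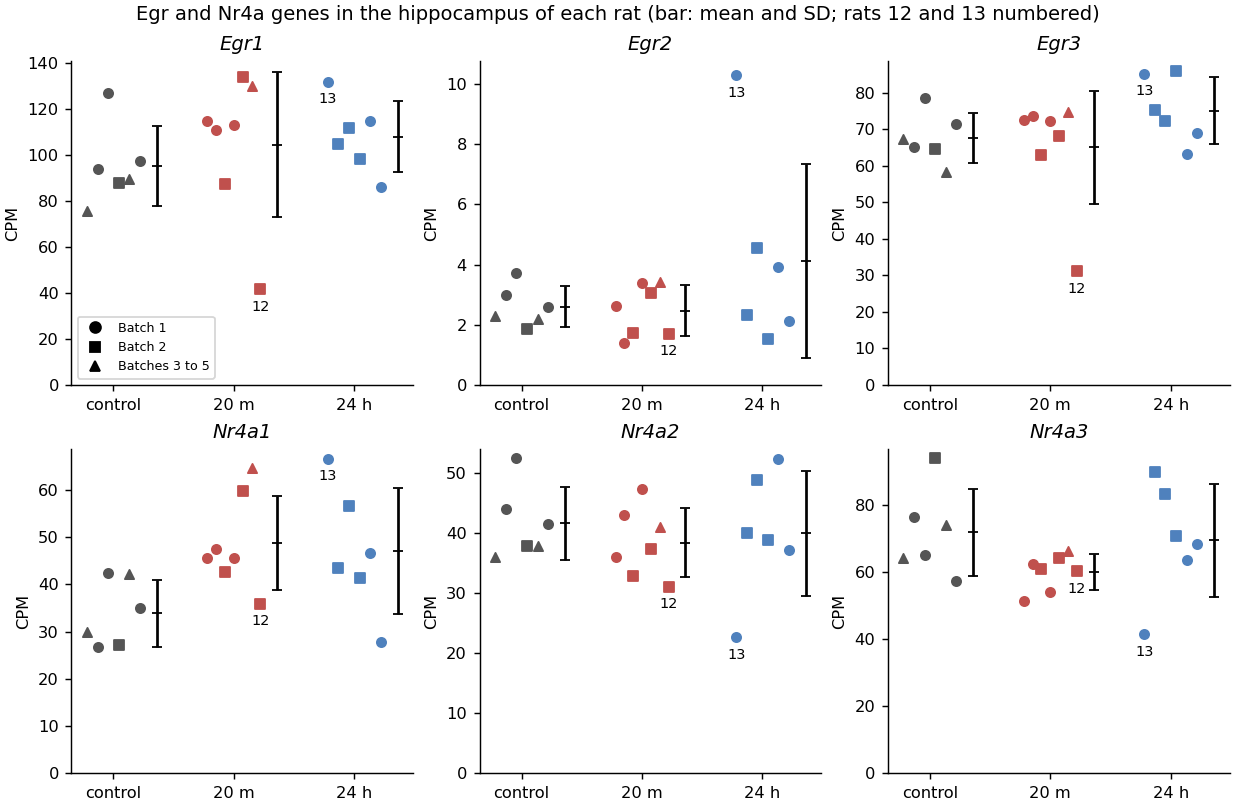
CPM of each gene in every rat by group, with symbols for batches and a bar for the mean and SD beside each group. Nr4a1 is higher than every control rat in 6 of 7 rats of the 20-m group, rat 12 is low in Egr1 and Egr3, and rat 13 is high in Egr2 and low in Nr4a2 and Nr4a3.

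Among the Egr genes, Egr1 encodes the protein also called Zif268 and is a widely used marker of hippocampal activation. Control rats had a median of 91.8 CPM (75.6 to 127), rats of the 20-m group 113 (41.6 to 134) and rats of the 24-h group 109 (86.2 to 132). The groups overlapped, and 2 of 7 rats at 20 min and 1 of 6 at 24 h were above every control rat. The log2 fold change was 0.18 at 20 min (standard error 0.187, 95% interval −0.215 to 0.569, adjusted p = 0.887 in edgeR) and 0.24 at 24 h (standard error 0.204, 95% interval −0.191 to 0.666, adjusted p = 1). The upper bounds correspond to a 1.48-fold and a 1.59-fold difference.

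Rat 12 held the lowest Egr1 of the 20-m group, at 41.6 CPM, while the next rat was at 87.4. Without rats 12 and 13 the log2 fold change of Egr1 at 20 min was 0.27 (standard error 0.116, 95% interval 0.024 to 0.515, unadjusted p = 0.0331, adjusted p = 0.506 in edgeR). It was not called in that fit either. Other rats moved the value the other way, to 0.041 without rat 10 and 0.093 without rat 7, and it was 0.035 in Batches 1 and 2 alone. At 24 h it was 0.113 without rats 12 and 13. Within batches the 20 min difference in mean log2 CPM was 0.102 in Batch 1, −0.157 in Batch 2 and 0.657 in the repeated runs, so its direction was not the same in each.

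Egr2, which also drives myelination in Schwann cells, was the least abundant of the 6. It had a median of 2.44 CPM in control rats (1.85 to 3.73), 2.61 in the 20-m group (1.39 to 3.42) and 3.13 in the 24-h group (1.54 to 10.3). At 20 min 0 of 7 rats were above every control rat and 3 were below, and at 24 h 3 of 6 were above and 1 was below. At 20 min the fold change on the log2 scale was 0.07, with a standard error of 0.365 and a 95% interval of −0.698 to 0.831 that spans both directions (adjusted p = 0.981 in edgeR). Its sign depended on the processing.

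At 24 h Egr2 had a log2 fold change of 0.80, with a standard error of 0.373 (unadjusted p = 0.0445, adjusted p = 1 in edgeR). That value turned on 1 animal. Rat 13 was at 10.3 CPM and the next rat of its group at 4.54. Without rat 13 the log2 fold change was 0.28 (unadjusted p = 0.399), and the range over all rats left out in turn was 0.279 to 1.007. The comparison of 20 min with 24 h used the same rat. It gave −0.74 with all rats (unadjusted p = 0.0462, adjusted p = 0.352 in edgeR) and −0.23 without rats 12 and 13 (unadjusted p = 0.473).

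Egr3, another immediate early gene, had the narrowest spread among control rats, with a coefficient of variation of 10.1%. Its median was 66.4 CPM in control rats (58.3 to 78.5), 72.4 in the 20-m group (31.1 to 74.7) and 73.9 in the 24-h group (63.2 to 86). Rat 12, at 31.1 CPM, was the only rat of the 20-m group below every control rat, and 0 of 7 were above. The log2 fold change at 20 min was −0.02 (standard error 0.146, 95% interval −0.332 to 0.281, adjusted p = 0.983 in edgeR). Leaving out rats 12 and 13 gave 0.06 (95% interval −0.106 to 0.226), and the upper bound of that interval is a 1.17-fold difference. At 24 h it was 0.20 (standard error 0.16, 95% interval −0.138 to 0.534, adjusted p = 1), and 0.098 without both rats.

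Among the Nr4a genes, Nr4a1, also known as Nur77, had the highest log2 fold change of the 6 at 20 min. Control rats ranged from 26.8 to 42.4 CPM with a median of 32.4. Rats of the 20-m group ranged from 35.9 to 64.8 with a median of 45.7, and 6 of 7 were above every control rat. Rats of the 24-h group ranged from 27.8 to 66.7 with a median of 45.0, and 4 of 6 were above every control rat. Rat 12 was the lowest at 20 min and rat 13 the highest at 24 h.

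The log2 fold change of Nr4a1 was 0.59 at both times. At 20 min it corresponded to 1.51-fold (standard error 0.178 on the log2 scale, 95% interval 1.16 to 1.95-fold, unadjusted p = 0.00364, adjusted p = 0.47 in edgeR), the smallest unadjusted p of the 6 genes and the 104th smallest of all genes. At 24 h it was 1.5-fold (standard error 0.193, 95% interval 1.14 to 1.99-fold, unadjusted p = 0.00665, adjusted p = 1). The 20 min difference was positive in each of the 3 batch levels, at 0.435, 0.724 and 0.864 from the first to the last. The 0.724 of Batch 2 was taken against its only control rat, rat 25 at 27.2 CPM. The 0.864 rested on rat 10 alone, the highest of the 20-m group at 64.8 CPM. In Batch 1 alone edgeR gave 0.414 (unadjusted p = 0.147). With all batches it gave 0.54 without rat 25 and 0.519 without rat 10 (unadjusted p = 0.0147 and 0.0221). An exact 2-sided permutation test within batches gave p = 0.00833 at 20 min, of a smallest possible 0.00417, and p = 0.125 at 24 h, of a smallest possible 0.0125. It is 1 of 18 such tests over the 6 genes and 3 comparisons.

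Direct comparison of the FST groups gave Nr4a1 a log2 fold change of 0.001 at 20 min against 24 h (standard error 0.172, 95% interval −0.36 to 0.362, adjusted p = 0.999 in edgeR). The interval leaves room for a difference of 1.29-fold in either direction, so equal levels are not shown. When rats 12 and 13 were left out the values moved apart. They were 0.61 at 20 min (unadjusted p = 0.00102, adjusted p = 0.222) and 0.40 at 24 h (unadjusted p = 0.0413, adjusted p = 1) against control, and 0.21 between the FST groups (95% interval −0.13 to 0.561, adjusted p = 0.697).

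Nr4a2, known as Nurr1 and required for midbrain dopamine neurons, was close to control in both groups. Its median was 39.7 CPM in control rats (35.9 to 52.4), 37.2 in the 20-m group (31 to 47.3) and 39.3 in the 24-h group (22.6 to 52.3). The lowest rat at 24 h was rat 13. The log2 fold change was −0.11 at 20 min (standard error 0.153, 95% interval −0.432 to 0.211, adjusted p = 0.915 in edgeR) and −0.06 at 24 h (standard error 0.168, 95% interval −0.411 to 0.295, adjusted p = 1). The 24 h value was 0.09 without rats 12 and 13.

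Nr4a3, also called NOR-1, was the one of the 6 with a lower level at 20 min at an unadjusted p under 0.05. Control rats had a median of 69.6 CPM (57.2 to 94.1), rats of the 20-m group 61 (51.3 to 66.2) and rats of the 24-h group 69.6 (41.5 to 89.8). The 20-m values fell inside the range of the controls but for 2 rats below it. The log2 fold change was −0.31 (standard error 0.115, 95% interval 0.68 to 0.951-fold, unadjusted p = 0.0135, adjusted p = 0.584 in edgeR). The difference was negative in each batch level, at −0.237, −0.605 and −0.06, and the exact permutation test within batches gave p = 0.0167, again 1 of the 18 tests. The unadjusted p of edgeR was 0.0641 without control rat 25, 0.0726 with no batch term and 0.192 in Batch 1 alone. The −0.605 of Batch 2 was taken against the only control rat there, which was the highest control at 94.1 CPM. Leaving out rats 12 and 13 gave −0.29 (unadjusted p = 0.00467, adjusted p = 0.35). At 24 h it was −0.12, with a standard error of 0.126 (adjusted p = 1), and this value turned on rat 13 and the controls, at −0.013 without rat 13, −0.055 without rat 25 and −0.065 without rat 22. At 20 min against 24 h it was −0.19 (unadjusted p = 0.114, adjusted p = 0.468) and −0.26 when rats 12 and 13 were left out (unadjusted p = 0.0132, adjusted p = 0.376).

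**Figure D3:**
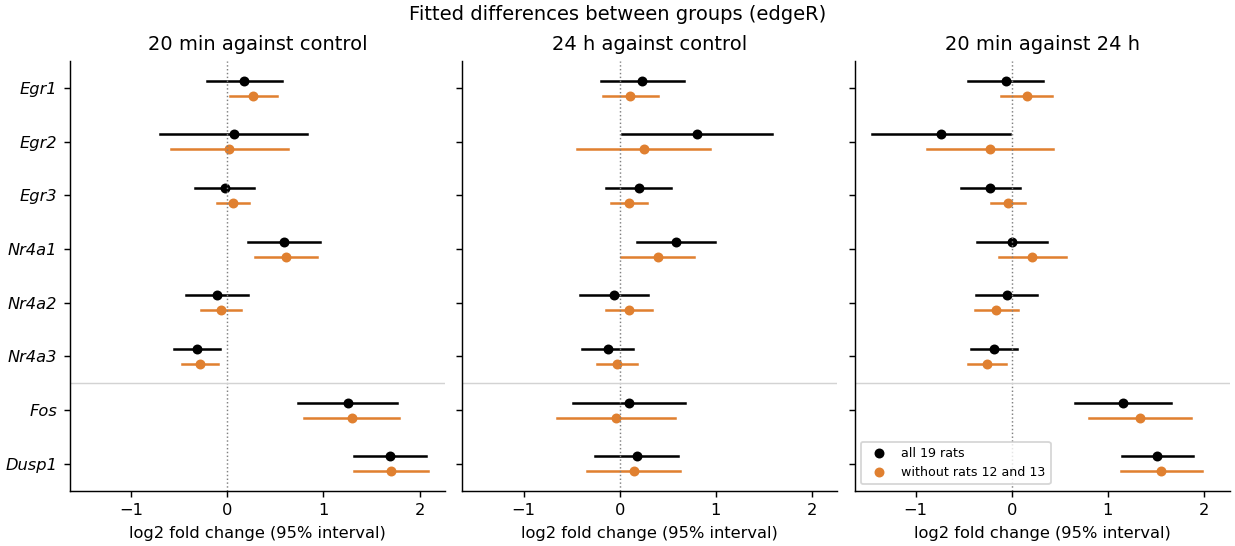
Log2 fold changes from edgeR with 95% intervals for the 6 genes and for Fos and Dusp1 in the 3 comparisons, with all 19 rats in black and without rats 12 and 13 in orange. Fos and Dusp1 lie above 1 at 20 min against both other groups, and the 6 genes lie between −0.31 and 0.59 at 20 min against control.

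Ratios of Nr4a1 to Nr4a2 and Nr4a3 were higher in the 20-m than in the control group, although none of these genes was called. Pairs of genes were compared by the change in their ratio between these groups, a comparison added after the values were seen. Exact 2-sided permutation within batches was used over 15 pairs. Nr4a1 was already known to have the highest and Nr4a3 the lowest log2 fold change, so their ratio tests those extremes again. As single genes in the exact test, both had an adjusted p of 0.15 over 18 tests. Pairs that share Nr4a1 are not separate results. Pairs of other genes were not tested, so the count of pairs that pass has no background. The ratio of Nr4a1 to Nr4a3 rose by 0.90 on the log2 scale and that of Nr4a1 to Nr4a2 by 0.68, both with p = 0.00417, the smallest the design allows, and a Benjamini-Hochberg adjusted p of 0.0312. The changes were 0.92 and 0.70 without rats 12 and 13 (exact p = 0.00556 for both). Control rat 25, the only control of Batch 2, had the highest Nr4a3 of its group (94.1 CPM) and a low Nr4a1 (27.2 CPM). The ratios were not tested without it. In Batch 1 the log2 difference was 0.435 for Nr4a1 and −0.237 for Nr4a3, against 0.724 and −0.605 in Batch 2. The ratio of Egr3 to Nr4a1 fell by 0.62 (exact p = 0.00833, adjusted 0.0417) and that of Egr2 to Nr4a1 by 0.63 (exact p = 0.0125, adjusted 0.0469). The change for Egr1 to Nr4a1 was −0.45 (exact p = 0.0167, adjusted 0.05). Of the 10 pairs without Nr4a1, the largest change was 0.45, for Egr1 over Nr4a3, and none had an adjusted p under 0.05 with all rats. That count depended on rats 12 and 13. When they were left out, the change was 0.56 for Egr1 over Nr4a3 (exact p = 0.0111, adjusted 0.0333), 0.34 for Egr1 over Nr4a2 (exact p = 0.0167, adjusted 0.0357) and 0.36 for Egr3 over Nr4a3 (exact p = 0.0222, adjusted 0.0417), and for Egr1 to Nr4a1 it was −0.36 (exact p = 0.00556, adjusted 0.0278). At 24 h against control none of the 15 pairs passed, with a smallest adjusted p of 0.375 in the exact test. That comparison allowed 80 arrangements and a smallest p of 0.0125, against 240 and 0.00417 at 20 min. A single pair could not have passed the adjustment at 24 h, so the counts of pairs at 20 min and 24 h cannot be compared.

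The size of the response was also taken relative to Fos, an AP-1 subunit, and Dusp1, a phosphatase of MAP kinases. Fos went from 3.7 to 8.26 CPM in control rats to 9.87 to 21.5 in the 20-m group, and Dusp1 from 5.9 to 12.5 to 24.9 to 36.4, with 7 of 7 rats above every control rat for both. Each of the 6 genes fell relative to both. Nr4a1 fell least, by 0.68 on the log2 scale relative to Fos (exact permutation within batches, p = 0.00833, adjusted p = 0.00833 over 12 tests) and by 1.14 relative to Dusp1. The Nr4a3 level fell most. It fell by 1.58 relative to Fos and fell by 2.03 relative to Dusp1. Except for Nr4a1 to Fos, where 5 of 7 rats were below every control rat, each of the 12 ratios placed 7 of 7 rats below every control, with the smallest possible p of 0.00417 and an adjusted p of 0.00455 in the exact test. Fos and Dusp1 by themselves also gave the smallest possible p of 0.00417 in this test, so a gene that hardly changes gives such ratios. Since the study picked both genes for their rise in these rats, the direction, separation and p-values of these ratios are not independent evidence.

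Differences among rats that share both group and batch were then compared among the genes, over the 17 rats with at least 1 such partner. Egr1 and Nr4a1 were high or low together, with Pearson's r = 0.737 (exact permutation within group and batch, p = 0.00193, adjusted p = 0.0289 over 15 pairs) and Spearman's rho = 0.85 (exact p = 0.00334, adjusted p = 0.0502). Without rats 7 and 12, the farthest from the median of Egr1, r was 0.94, and without rats 12 and 13 it was 0.885. Egr2 had r = 0.76 with Nr4a1 (exact p = 0.0113, adjusted p = 0.0717) and 0.513 with Egr1 (exact p = 0.0143, adjusted p = 0.0717), which did not pass the correction. Leaving out rats 12 and 13 gave Egr1 an r of 0.626 with Egr2 (exact p = 0.00868, adjusted p = 0.0499). Egr1 with Nr4a2 turned with the rats used, at r = 0.127 over 17 rats (exact p = 0.634), −0.079 without rats 7 and 12 and 0.693 without rats 12 and 13 (exact p = 0.0116, adjusted p = 0.0499). Over all 15 pairs r ranged from −0.492 to 0.834 with a median of 0.127, and 8 were positive. How often pairs of other genes reach such values was not tested.

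The largest r, 0.834 between Egr1 and Egr3, rested on single rats. Its exact p was 0.0607 (adjusted p = 0.228, Spearman's rho = 0.493), and it was 0.317 without rats 7 and 12 and 0.082 without rats 12 and 13. Nr4a2 and Nr4a3 had r = 0.666 (exact p = 0.144, adjusted p = 0.369), and 0.157 without rats 12 and 13. Nr4a1 and Nr4a2 gave r = −0.078 with all 17 rats and 0.759 without rats 12 and 13 (exact p = 0.0133, adjusted p = 0.0499), and rat 13 had the highest Nr4a1 and the lowest Nr4a2 of its group.

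Against Fos and Dusp1, 12 pairs added after the values were seen, the highest value belonged to Nr4a1 and Fos. For Nr4a1, r was 0.836 with Fos (exact p = 0.00174, adjusted p = 0.00694, Spearman's rho = 0.801) and 0.76 with Dusp1 (exact p = 0.000257, adjusted p = 0.00309, Spearman's rho = 0.809). Egr1 with Fos gave 0.743 (exact p = 0.000514, adjusted p = 0.00309) and Egr2 with Fos 0.8 (exact p = 0.00887, adjusted p = 0.0266). Egr1 with Dusp1 gave 0.371 (exact p = 0.019, adjusted p = 0.0455), which did not pass in Spearman's rho (adjusted p = 0.0809), without rats 7 and 12 (r = 0.729, adjusted p = 0.0671) or without rats 12 and 13 (r = 0.606, adjusted p = 0.103). Without the 2 farthest rats r was 0.76 for Nr4a1 with Fos, 0.759 for Nr4a1 with Dusp1, 0.801 for Egr1 with Fos and 0.77 for Egr2 with Fos. Without rats 12 and 13 the adjusted p of Nr4a1 with Fos and of Egr2 with Fos was 0.0583 for both, at r = 0.787 and 0.811. Nr4a2 with Fos gave 0.194 over 17 rats and 0.852 without rats 12 and 13 (exact p = 0.00752, adjusted p = 0.0301). Egr3 and Nr4a3 had no r over 0.352 with either gene over 17 rats.

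**Figure D4:**
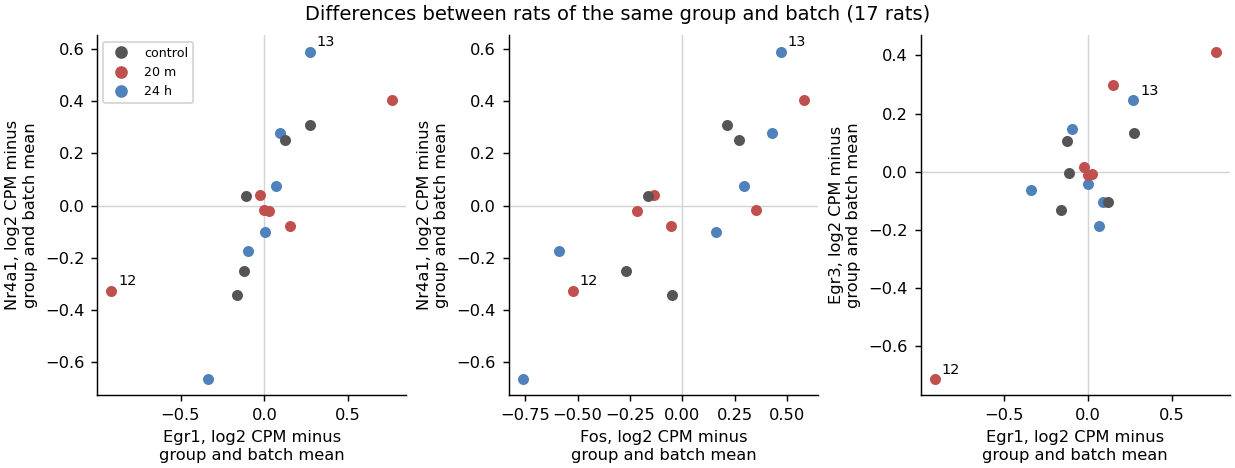
Log2 CPM of a pair of genes in 17 rats, each minus the mean of the rat's group and batch level, for Nr4a1 against Egr1 (r = 0.737), Nr4a1 against Fos (r = 0.836) and Egr3 against Egr1 (r = 0.834). In the last panel rat 12 lies far from the other rats, and r is 0.082 without rats 12 and 13.

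Likeness was also taken over all 19 rats with batch removed, as Pearson's r between log2 CPM profiles, a description that includes the groups. Of 13907 genes, Sik1 was 14th in likeness to Nr4a1 (r = 0.721), Fos 19th (r = 0.69), Egr1 30th (r = 0.668) and Zfp36 38th (r = 0.658). Nr4a3 was near the other end, at r = −0.504. Taken the other way, Nr4a1 was only 1045th of 13907 in likeness to Egr1, so many genes followed Egr1 more closely. The mean profile of the 6 genes was most like ENSRNOG00000020416 and ENSRNOG00000050841 (r = 0.853 for both), which no table at hand names. Fos reached r = 0.239 with that mean and Dusp1 −0.001.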

How the data were processed

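The authors trimmed reads with AdapterRemoval, aligned them with STAR to Rnor 6.0 and deposited RSEM expected counts, not normalized, and TPM, with no batch correction. Tool versions for STAR and RSEM: not given in the sources. The deposited posterior standard deviation of the count, in reads, served to check for shared reads.

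Expected counts were rounded and summed over the runs of a rat, and TPM was averaged over them. Genes were kept by edgeR's filterByExpr (minimum count 10, minimum total 15), scaled by TMM and tested with group and batch (3 levels) as terms, 14 residual degrees of freedom and Benjamini-Hochberg adjustment over 13908 genes. Log2 CPM has a prior count of 2. Scripts were tested on simulated data. All 6 genes are named, whatever their values. Members and lists were chosen with earlier results of these data known. Marker and pathway lists were not analysed here, as identifiers other than those the study names could not be paired with symbols. Alternatives covered scaling, DESeq2, limma voom, ComBat, batch terms and subsets, filters, single runs, a replicate block, TPM with pseudocounts of 1 and 0.1, and rats left out. Leaving out rats 12 and 13 together was chosen after seeing the data. Software was R 4.3.3, edgeR 4.0.16, limma 3.58.1, DESeq2 1.42.0, sva 3.50.0, Python 3.11.15 and scipy 1.17.1.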

Additional observations from a re-analysis of the deposited data

Results flagged for a closer look

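Egr2 in rat 13 of the 24-h group, at 10.3 CPM, lay far above the other rats of its group, the nearest of which was at 4.54 CPM. The gap was 0.658 of the whole range of the group, past Dixon's 95% critical value for 6 samples. The criterion was applied to CPM and depends on the scale. In log2 CPM rat 13 was at 3.404, the nearest rat at 2.268 and the lowest at 0.861, a smaller share of the range. Egr3 in rat 12 of the 20-m group, at 31.1 CPM, lay far below the others, the nearest of which was at 63 CPM, and the gap was 0.732 of the range, past the same criterion for 7 samples. These are 2 of 18 groups tested, and chance flags about 1 in 20 groups. Both rats also stood apart over all genes, with 391 and 539 genes over 2-fold from the median of their group.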

How the results depend on the processing

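With each alternative and each rat left out, the number of the 6 genes called was 0 in all 3 comparisons, including with no fold minimum. Under the replicate block, in which libraries of a rat form a paired set, it was 0 as well. Rats otherwise share no number across groups. Over all genes, counts called at 20 min against control were 6 in edgeR, 15 in DESeq2, 17 after ComBat, 20 under the block and 0 in Batch 1 alone, and at 20 min against 24 h 5, 30, 39, 19 and 0. For Nr4a1 at 20 min the log2 fold change was 0.414 to 0.611 over the alternatives (adjusted p 0.135 to 1 with edgeR, DESeq2 or limma) and 0.519 to 0.698 with a rat left out. For Nr4a3 it was −0.387 to −0.245.

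Signs that turned belong to differences near 0, and the cause was not tested. Egr2 at 20 min was 0.067, but −0.032 with limma voom, −0.082 with no batch term, −0.337 in Batch 1, −0.096 in Batches 1 and 2, −0.096 under the replicate block, and −0.019 and −0.059 on TPM. Egr3 at 20 min was −0.025, but 0.005 with only the groups compared, 0.023 in Batch 1 and 0.06 without rats 12 and 13. At 20 min against 24 h, Egr1 was 0.018 in Batch 1 and 0.157 without rats 12 and 13, and Nr4a2 was 0.164 in Batch 1. Nr4a1 there was −0.028 with only the groups compared and in Batches 1 and 2, −0.037 in Batch 1, −0.011 with first runs, and −0.022 and −0.023 on TPM. Nr4a2 at 24 h was 0.094 without rats 12 and 13. With each rat left out the ranges were −0.088 to 0.238 for Egr2 and −0.097 to 0.058 for Egr3 at 20 min, −0.162 to 0.112 for Nr4a2 at 24 h, and at 20 min against 24 h −0.2 to 0.085 for Egr1, −0.126 to 0.135 for Nr4a1 and −0.2 to 0.042 for Nr4a2.

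Correlations between rats that turned without the 2 farthest rats were Egr1 with Nr4a2 (−0.079), Egr2 with Nr4a2 (0.648) and Nr4a3 (0.084), Nr4a1 with Nr4a2 (0.674) and Nr4a3 (0.095), Egr3 with Fos (−0.094), and Nr4a3 with Fos (0.458) and Dusp1 (0.052). Those that turned without rats 12 and 13 were Egr1 with Nr4a3 (0.078), Egr2 with Egr3 (−0.288), Nr4a2 (0.688) and Nr4a3 (0.004), Egr3 with Nr4a1 (−0.112), Fos (−0.452) and Dusp1 (−0.107), Nr4a1 with Nr4a2 (0.759) and Nr4a3 with Fos (0.302). With residuals within groups only, Egr3 with Nr4a2 (0.175) and Nr4a1 with Nr4a2 (0.018) turned. The 12 ratios to Fos and Dusp1 kept their direction in every setting run. The study picked both genes for their rise in these rats, so that steadiness is no independent evidence. No rat of the 24-h group stands in Batches 3 to 5, and Batch 2 has 1 control rat, so batch and group are in part mixed. Depth limits Egr2 most, at 10 to 79 reads per rat.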
